A study of Homo sapiens with 8 samples.

Results

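The genes described here are 42 genes of mitosis and spindle assembly: the kinases and cyclins of mitotic entry, the spindle checkpoint and the enzymes of anaphase, the chromosomal passenger complex, kinetochore proteins, spindle motors and microtubule proteins, cytokinesis proteins and the topoisomerase TOP2A. They were listed by name for their mitotic functions, with earlier results of these libraries known, and are 42 of the 24351 genes in the data. RNA was sequenced in ARP1 and H929, a pair of established human multiple myeloma lines, which are malignant plasma cells grown in culture. Each line gave 4 libraries: CHEK1 overexpression, the control of overexpression, CHEK1 knockdown, and the control of knockdown. CHEK1 encodes a checkpoint kinase that holds back mitotic entry while DNA is damaged or incompletely copied. The labels give neither the vectors, the time after the manipulation, nor whether clones or pools of cells were used, so each genotype is known by its label alone. With 8 libraries and 1 per line and genotype, ARP1 and H929 stand in as the replicates of each genotype (n = 2), and the p-values measure the spread between these libraries and speak for no other line.

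Mitosis starts when CDK1 bound to a B-type cyclin becomes active, which leads the chromosomes to condense and the spindle to form. Kinetochores, the protein layers built on centromeres, attach to spindle microtubules, and the spindle checkpoint blocks the anaphase-promoting complex until attachment is complete. Most of these genes are transcribed in a wave in the late cell cycle, under repressing and activating complexes that bind a promoter element called the CHR (cell cycle genes homology region) together with the CCAAT box, the site of the factor NF-Y, so their level in bulk RNA also follows the share of cells in that phase.

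CHEK1 itself read 78.2 FPKM without and 114 FPKM with overexpression in ARP1, and 81.6 FPKM without and 107 FPKM with it in H929. FPKM counts fragments per kilobase of RNA in proportion to all fragments of a library, here summed over the transcripts of a gene. In ARP1 CHEK1 read 61.0 FPKM in the control of knockdown and 51.6 FPKM in the library labelled knockdown. The same pair read 80.7 and 84.8 FPKM in H929, so that library does not show less CHEK1 RNA than its control and goes against its label. The fall in ARP1 was smaller than the gap between the ARP1 controls, at 78.2 and 61.0 FPKM. Every knockdown value below is therefore that of the libraries labelled knockdown. Of the 10 plasma cell markers, all were measured, with 3190 to 5866 FPKM in sum per library. Markers of T and NK cells summed to 0.526 to 14.3 FPKM, those of myeloid cells to 1.21 to 2.89 FPKM, and those of stroma and epithelium to 1.59 to 17.1 FPKM. CD3D, CD3G, NKG7, S100A8 and S100A9 were listed at 0 in all 8 libraries. In bulk samples, fewer cells of a type and less RNA per cell cannot be told apart, and this holds for the share of cells in mitosis.

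The promoters of 36 of the 42 genes were found in the RefSeq promoter table (GRCh38.p14), which gives 250 bases before each start and 50 from it. AURKA, BIRC5, BUB3, TPX2, TTK and UBE2C had no entry. The CHR was searched as TTTGAA and the CCAAT box as CCAAT, each on both strands. The CHR was present in 30 of the 41 member promoters (73.2%; 5 genes have 2 entries), against 15.2% of all 35116 promoters. The CCAAT box was present in 34 (82.9%), against 34.6% of all promoters. Both were present in 25 (61%), against 5.9%. The windows below are the 150 bases before the start of 5 of the genes, 5' to 3' on the gene's strand, with CHR and CCAAT matches on either strand in capitals. KIF11, CEP55, ESPL1 and ZWINT are 4 of the 13 members whose level in the libraries labelled knockdown was below both controls in both lines, and are shown as examples that hold both motifs. KIF2C, which holds neither, is the member whose level was above both controls there. These 5 were chosen after their values were seen and are no sign of a link between motif and level. Of the 12 in that group of 13 with an entry, 10 held both motifs, ANLN held no CCAAT box and PTTG1 no CHR. Of the 24 other members with an entry, 13 held both, 3 the CHR alone, 6 the CCAAT box alone, and CENPE and KIF2C neither.
KIF11: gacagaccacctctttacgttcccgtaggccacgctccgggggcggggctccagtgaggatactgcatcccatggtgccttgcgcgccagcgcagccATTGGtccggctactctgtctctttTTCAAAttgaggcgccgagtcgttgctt
CEP55: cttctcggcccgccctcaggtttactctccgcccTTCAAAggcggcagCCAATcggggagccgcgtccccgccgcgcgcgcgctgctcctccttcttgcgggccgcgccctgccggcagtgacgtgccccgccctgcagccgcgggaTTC
ESPL1: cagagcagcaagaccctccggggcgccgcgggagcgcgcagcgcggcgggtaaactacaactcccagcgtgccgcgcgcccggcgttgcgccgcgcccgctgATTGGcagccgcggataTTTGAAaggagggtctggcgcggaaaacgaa
ZWINT: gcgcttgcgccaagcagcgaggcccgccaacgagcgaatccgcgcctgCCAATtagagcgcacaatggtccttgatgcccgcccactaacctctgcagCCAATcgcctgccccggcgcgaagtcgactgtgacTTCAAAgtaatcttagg
KIF2C: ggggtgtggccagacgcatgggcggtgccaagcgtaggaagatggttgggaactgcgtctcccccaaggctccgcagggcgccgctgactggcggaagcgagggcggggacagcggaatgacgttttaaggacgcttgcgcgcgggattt
The KIF11 window lies at chr10:92592980-92593129 on the plus strand, with a CCAAT box read on the other strand (ATTGG) and a CHR also read on the other strand (TTCAAA) 28 bases before the start. The CEP55 window (chr10:93496462-93496611, plus strand) holds a CHR and a CCAAT box close together, and its last capitals are the beginning of a further CHR match that runs past the start. The ESPL1 window (chr12:53268149-53268298, plus strand) holds the CHR in the forward sense, 31 bases before the start. The ZWINT window (chr10:56361274-56361423, minus strand) holds a pair of CCAAT boxes and a CHR 17 bases before the start. ZWINT has a further entry with another start, and the CHR lies 31 bases before that start. The KIF2C window (chr1:44739687-44739836, plus strand) holds neither motif. Of the genes with an entry, KIF2C and CENPE also held neither the CHR variant TTCGAA, present in 2 member promoters (4.88%, against 1.45%), nor an E2F site written as TTTCGCGC or TTTGGCGC, present in 3 (7.32%, against 1.15%). A match describes the letters in the window and is no measure of binding.

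Beside the members, 101 other genes were listed: mitosis genes, regulators of mitotic entry, and regulators of the transcription of late cell cycle genes. Of these, 88 had an entry, and the CHR was present in 43 of 122 promoters (35.2%) and the CCAAT box in 49.2%. Of 16 genes of the G1/S transition, which peak earlier in the cycle, 13 had an entry, and the CHR was present in 1 of 19 promoters (5.26%), the CCAAT box in 73.7% and the E2F site in 26.3%.

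All 42 genes were well above the filter on low values (an FPKM of 1 or more in 2 or more libraries), which 14905 genes passed. Their means over the 8 libraries ran from 10.9 FPKM for KIF18A to 174 FPKM for BUB3. These lay at the 69.5th and the 98.0th percentile of all 24351 genes, those that failed the filter included. The highest after BUB3 were CCNB1 (159 FPKM), UBE2C (142), PTTG1 (134) and TOP2A (115), and the lowest after KIF18A were TTK (13.0 FPKM), CENPE (17.2), SPC25 (17.9) and CEP55 (27.6). In sum they made up 0.283% of the FPKM of the ARP1 library labelled knockdown, the lowest share, and 0.462% of that of the H929 control of knockdown, the highest. The ratio of a gene's highest to its lowest library ran from 1.24 for INCENP to 2.79 for ZWINT. Below, 4 values in a row are FPKM in the order control of overexpression, overexpression, control of knockdown, knockdown.

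**Figure D1:**
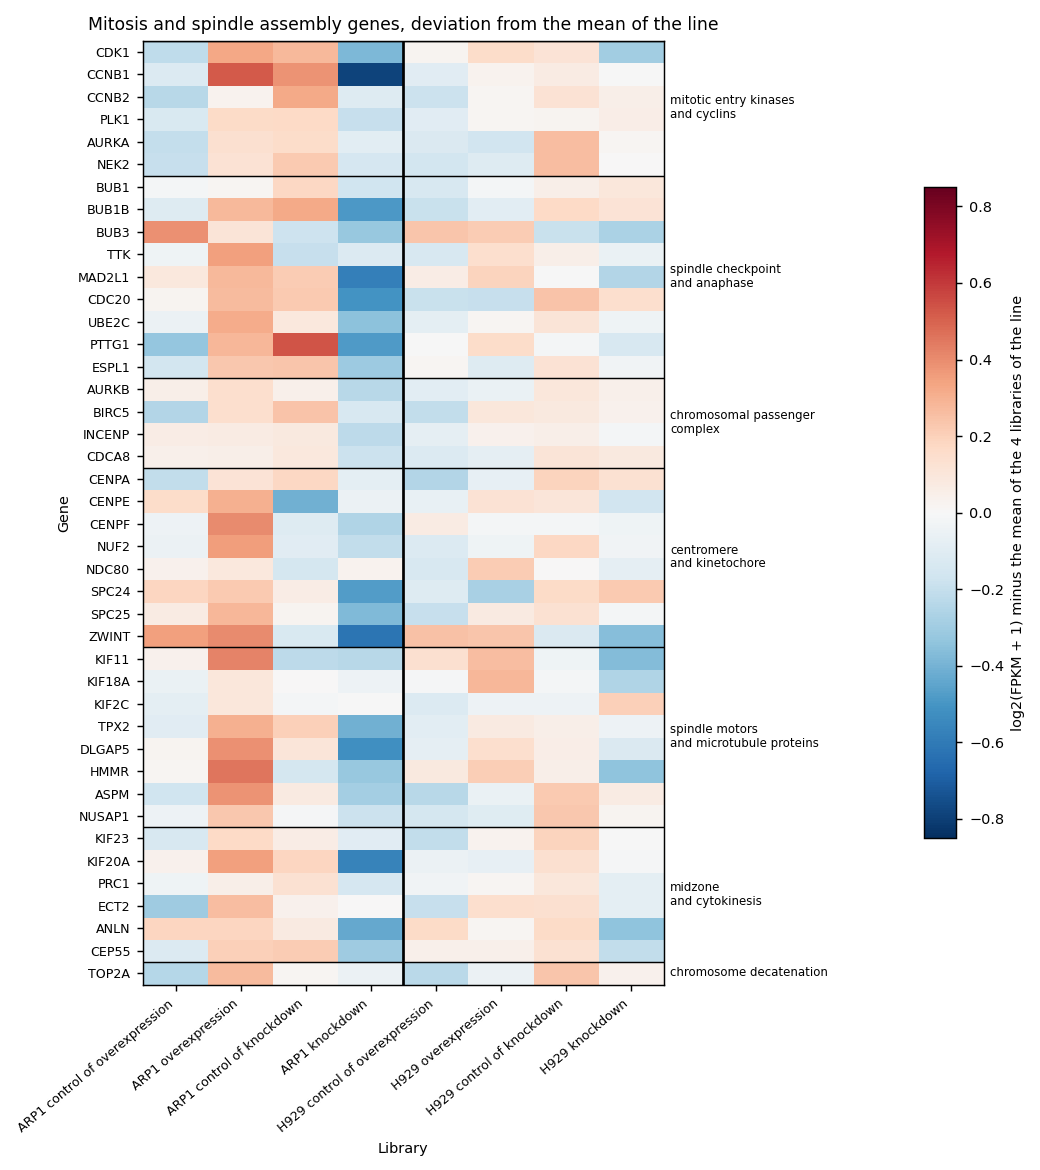
Deviation of each member (rows, grouped by role) from its mean over the 4 libraries of its line (columns, log2 of FPKM plus 1, colour scale). The ARP1 overexpression column is above the line's mean for most genes, with a median of 0.25, and the ARP1 knockdown column below it, with a median of -0.24, while the medians of the H929 columns lie between -0.10 and 0.10.

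The kinases and cyclins of mitotic entry were higher with overexpression than in its control in both lines for 5 of 6 genes. They were lower in both libraries labelled knockdown than in their controls for 5 of 6. Of all genes 28.0% and 28.9% did the same, and of all members 33 and 35, so these counts do not set the role apart from the other members. CDK1, the kinase that drives cells into mitosis, read 52.4, 76.7, 74.0 and 46.5 in ARP1 and 78.2, 85.9, 83.4 and 62.6 in H929. CCNB1, its main cyclin partner, read 129, 200.03, 181 and 80.2 in ARP1 and 159, 173, 179 and 169.6 in H929. For CDK1 the library labelled knockdown was the lowest of its line in both lines, whereas the difference of CCNB1 between 181 and 80.2 FPKM in ARP1 stood beside one between 179 and 169.6 FPKM in H929. CCNB2, the second B-type cyclin, read 48.8, 58.7, 72.0 and 53.2 in ARP1 and 64.6, 74.4, 80.3 and 76.1 in H929. PLK1, a kinase of centrosome maturation and spindle assembly, read 96.1, 118, 118 and 91.6 in ARP1 and 99.4, 108, 108 and 111 in H929, and was thus highest in H929 in the library labelled knockdown. AURKA and NEK2 act at the centrosome and spindle pole. AURKA read 42.8, 54.4, 55.3 and 46.5 in ARP1 and 56.4, 54.8, 73.8 and 62.1 in H929. NEK2 read 23.1, 29.1, 31.2 and 24.0 in ARP1 and 27.7, 28.7, 37.3 and 31.0 in H929. For CCNB2, AURKA and NEK2 the control of overexpression was the lowest library of ARP1 and the control of knockdown the highest library of both lines, so in ARP1 the controls spanned the whole range of these genes.

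Among the spindle checkpoint proteins, MAD2L1 and BUB3 were lowest of their line in both libraries labelled knockdown, while BUB1, BUB1B and TTK were not. MAD2L1, which binds and inhibits CDC20, read 23.3, 26.7, 25.5 and 14.2 in ARP1 and 34.1, 37.3, 32.4 and 27.2 in H929. BUB3, a checkpoint scaffold and the most abundant member, read 226, 185, 152 and 137 in ARP1 and 200.2, 198, 149 and 141 in H929. For BUB3 both libraries of the knockdown arm, control included, lay below both libraries of the overexpression arm in each line. BUB1, a kinetochore kinase of the checkpoint, read 64.6, 66.2, 73.9 and 58.0 in ARP1 and 55.5, 60.3, 63.3 and 65.4 in H929. BUB1B, a subunit of the mitotic checkpoint complex, read 42.1, 55.3, 57.2 and 32.2 in ARP1 and 44.8, 48.2, 57.9 and 55.7 in H929. TTK, the kinase at the head of the checkpoint, read 12.7, 16.9, 11.3 and 12.0 in ARP1 and 11.5, 14.2, 13.3 and 12.3 in H929. The overexpression library was the highest of both lines for TTK and MAD2L1, and the ARP1 knockdown library the lowest of its line for BUB1, BUB1B and MAD2L1.

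Within ARP1 the genes that carry out anaphase were lowest in the library labelled knockdown, for all 4 of them. That library was the lowest of its line for 29 of all members and for 33.8% of all genes. CDC20, the activator of the anaphase-promoting complex, read 97.4, 116, 112 and 67.1 in ARP1 and 97.9, 97.4, 132 and 123 in H929. UBE2C, its ubiquitin-conjugating enzyme, read 124, 159, 136 and 99.99 in ARP1 and 145, 155, 166 and 150.02 in H929. In H929 neither gene set the library labelled knockdown below both controls. PTTG1 is securin, the inhibitor of separase, and ESPL1 is separase, the protease that opens cohesin. PTTG1 read 95.6, 146, 175 and 86.0 in ARP1 and 142, 159, 141 and 129 in H929. ESPL1 read 26.7, 35.2, 35.4 and 24.0 in ARP1 and 27.3, 24.9, 29.5 and 26.5 in H929. The ARP1 controls of PTTG1, 95.6 and 175 FPKM, were the furthest apart of any member within a line, at -0.86 on the log2 scale.

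The chromosomal passenger complex corrects faulty attachments and later moves to the midzone. In AURKB, INCENP and CDCA8 overexpression and its control differed by 0.11 or less on the log2 scale in both lines. AURKB, its kinase, read 78.9, 84.1, 78.6 and 64.6 in ARP1 and 87.6, 89.4, 99.8 and 96.0 in H929. INCENP, its scaffold, read 52.7, 53.0, 53.4 and 43.1 in ARP1 and 48.4, 52.4, 52.9 and 50.5 in H929. The other ARP1 libraries of INCENP lay between 52.7 and 53.4 FPKM. CDCA8 (borealin) read 49.2, 49.4, 50.8 and 41.8 in ARP1 and 48.8, 50.1, 57.2 and 56.0 in H929. BIRC5 (survivin) read 43.1, 57.1, 61.0 and 46.8 in ARP1 and 58.3, 72.3, 71.6 and 69.2 in H929. AURKB, INCENP and CDCA8 were lowest in the library labelled knockdown in ARP1, and in H929 in the control of overexpression, which was also the lowest library of BIRC5 in both lines.

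Of the centromere and kinetochore genes, ZWINT and CENPF were below both controls in both libraries labelled knockdown. For CENPF in H929 the log2 ratio to the nearer control was -0.02. NDC80 and CENPE had the highest ratios of knockdown to its control in ARP1. ZWINT, which helps recruit checkpoint proteins to the kinetochore, read 98.0, 101, 69.9 and 49.4 in ARP1 and 138, 136, 106 and 89.7 in H929, with both libraries of the knockdown arm below both of the overexpression arm. NDC80, NUF2, SPC24 and SPC25 form the complex that grips microtubules. NDC80 read 38.0, 39.5, 33.3 and 37.8 in ARP1 and 51.6, 66.0, 56.8 and 53.7 in H929. NUF2 read 29.8, 39.6, 28.8 and 26.5 in ARP1 and 38.2, 40.5, 47.2 and 40.7 in H929. Subunits of this complex thus differed in order, with NDC80 highest in the overexpression library of both lines and NUF2 in that of ARP1. SPC24 read 46.9, 48.4, 43.2 and 29.4 in ARP1 and 37.4, 33.2, 45.5 and 47.2 in H929. SPC25 read 13.8, 16.1, 13.3 and 9.82 in ARP1 and 19.5, 23.8, 24.7 and 22.2 in H929. In ARP1 the library labelled knockdown was lowest for both, and in H929 it was the highest for SPC24. CENPA is the histone that marks the centromere, and CENPE and CENPF are a kinesin and a large coiled-coil protein of the outer kinetochore. CENPA read 35.9, 45.3, 47.2 and 39.4 in ARP1 and 36.5, 41.4, 49.9 and 47.7 in H929. CENPE read 16.2, 18.0, 10.6 and 13.9 in ARP1 and 18.8, 21.5, 21.2 and 17.5 in H929. CENPF read 43.0, 58.8, 40.9 and 37.0 in ARP1 and 47.0, 44.1, 44.2 and 43.5 in H929. CENPF stood at 58.8 FPKM in the ARP1 overexpression library against 37.0 to 43.0 in the others of that line, and its 4 values in H929 lay between 43.5 and 47.0.

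Of the 8 spindle motors and microtubule proteins, 6 were above both controls in the overexpression library of both lines, against 14.7% of all genes. Over all members this order held for 12, and with equal FPKM sums for 9, against 13.5% of all genes. KIF11, the plus-end motor that pushes the spindle poles apart, read 49.0, 64.1, 40.7 and 40.3 in ARP1 and 65.9, 72.1, 58.4 and 46.2 in H929. HMMR, a microtubule-binding protein of the spindle pole, read 32.9, 44.8, 29.2 and 25.8 in ARP1 and 38.2, 41.7, 37.3 and 28.1 in H929. Both genes held the same order in both lines: overexpression, its control, the control of knockdown, knockdown. TPX2, which activates AURKA on the spindle, read 58.4, 77.3, 72.3 and 46.9 in ARP1 and 77.0, 86.6, 84.8 and 79.5 in H929. DLGAP5, a protein that stabilises kinetochore fibres, read 30.0, 38.9, 31.7 and 20.3 in ARP1 and 36.8, 43.0, 40.5 and 35.7 in H929. The overexpression library was the highest of each line for both. KIF18A dampens chromosome movement on the spindle, and KIF2C takes microtubules apart at the centromere. KIF18A read 12.4, 14.0, 13.0 and 12.6 in ARP1 and 8.57, 10.7, 8.51 and 7.09 in H929. KIF2C read 49.1, 55.6, 51.5 and 51.9 in ARP1 and 59.6, 62.8, 62.5 and 74.4 in H929. KIF2C was the member whose level was above both controls in both libraries labelled knockdown, by 0.01 on the log2 scale over the nearer control in ARP1 and by 0.25 in H929. ASPM, a spindle pole protein, read 32.7, 48.2, 38.9 and 29.9 in ARP1 and 40.2, 45.7, 55.8 and 50.0 in H929. NUSAP1, which bundles microtubules near chromatin, read 73.2, 88.4, 74.8 and 66.2 in ARP1 and 110.3, 114, 144 and 125 in H929. For ASPM and NUSAP1 the highest library was that of overexpression in ARP1 and the control of knockdown in H929.

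Of the midzone and cytokinesis genes, PRC1, ANLN and CEP55 were lowest of their line in both libraries labelled knockdown, and ECT2 was highest in both overexpression libraries. ECT2, the exchange factor that switches on RhoA at the division plane, read 24.9, 37.3, 31.8 and 31.0 in ARP1 and 31.9, 40.7, 40.5 and 34.6 in H929. ANLN (anillin), which links the contractile ring to the membrane, read 26.0, 26.0, 24.2 and 16.6 in ARP1 and 42.8, 38.6, 42.7 and 29.9 in H929. In both lines the ANLN sum of the library labelled knockdown lay apart from the other 3. CEP55, which recruits the abscission machinery, read 21.4, 26.9, 27.2 and 18.7 in ARP1 and 32.5, 32.5, 34.5 and 27.1 in H929. PRC1, which bundles the antiparallel microtubules of the midzone, read 54.8, 58.2, 61.5 and 50.8 in ARP1 and 86.0, 89.3, 94.4 and 82.9 in H929, so that the lines did not overlap. KIF23 and KIF20A are the kinesins of the midzone. KIF23 read 22.4, 27.9, 25.9 and 23.1 in ARP1 and 28.7, 34.2, 38.2 and 33.3 in H929. KIF20A read 31.2, 39.0, 34.7 and 20.2 in ARP1 and 39.6, 39.0, 45.2 and 40.7 in H929. KIF20A in the ARP1 library labelled knockdown was the lowest of its 8 values. TOP2A, which untangles sister DNA before anaphase, read 96.8, 138, 116 and 111 in ARP1 and 97.2, 110.1, 134 and 117 in H929, with the control of overexpression lowest in both lines.

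Overexpression of CHEK1 was compared with its control to ask whether the mitosis genes changed with more CHEK1. In the limma fit over all genes, 39 of the 42 had a fold change above 0 and 3 below, with a median of 0.20 on the log2(FPKM + 1) scale, against a median of -0.01 and 48.4% of genes above 0 over all genes. The largest were ECT2, at 0.45 ± 0.13 (SE), PTTG1 at 0.39 ± 0.23, CCNB1 at 0.38 ± 0.29, ASPM at 0.36 ± 0.20, BIRC5 at 0.35 ± 0.13 and TOP2A at 0.34 ± 0.16. The smallest were BUB3 at -0.15 ± 0.12, ANLN at -0.07 ± 0.14 and SPC24 at -0.06 ± 0.28, followed by ZWINT (0.02), CDCA8 (0.02) and INCENP (0.06). No member passed the test at an adjusted p of 0.05 (0 of 42; 0.00671% of all genes; the smallest adjusted p of a member was 0.994 by limma with Benjamini-Hochberg adjustment). At an unadjusted p under 0.05 there were 2 of 42, ECT2 and BIRC5, against 4.45% of all genes. By role, TOP2A aside, the median was highest for the spindle motors and microtubule proteins (0.27) and lowest for the chromosomal passenger complex (0.06).

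The ratio was above 0 in 40 members in ARP1, with a median of 0.31, and in 33 in H929, with a median of 0.12. In 33 genes it was above 0 in both lines and in 2, BUB3 and ANLN, below 0 in both, against 28.0% and 30.1% of all genes. ANLN in ARP1 was close to a tie, at 0.1794 with overexpression and 0.1796 in its control from the line's mean on the log2 scale. Set against the control of knockdown of the same line, the same overexpression libraries gave 20 members above and 22 below 0, with a median of -0.01 and no call (4 at an unadjusted p under 0.05, against 14.6% of all genes). The medians by line were 0.10 in ARP1 and -0.06 in H929. With both controls as the baseline, 34 members were above 0 and 8 below, with a median of 0.13 and no call (0.00671% of all genes; 3 of 42 at an unadjusted p under 0.05, against 8.98%). KIF11 came first at 0.36 ± 0.12, followed by HMMR and TTK at 0.33 each, ECT2 (0.28), CENPE (0.27) and DLGAP5 (0.24). At the other end were SPC24 (-0.10), CDCA8 and ANLN (-0.05 each), CDC20 and AURKA (-0.04 each) and NEK2 (-0.02). Without the ARP1 overexpression library the median was 0.05 against its own control and -0.01 against both controls, and without the H929 overexpression library it was 0.36 and 0.24.

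The libraries labelled knockdown, set against their own controls, had 39 of the 42 members below 0 and 3 above, with a median of -0.24, against -0.02 over all genes. The lowest fitted changes were those of CCNB1, at -0.62 ± 0.29 (SE), PTTG1 at -0.57 ± 0.23, CDK1 at -0.53 ± 0.15, MAD2L1 at -0.52 ± 0.17, ANLN at -0.51 ± 0.14 and KIF20A at -0.45 ± 0.23. The highest were KIF2C at 0.13 ± 0.13, CENPE at 0.05 ± 0.21, NDC80 at 0.05 ± 0.14, TTK (-0.01), CENPF (-0.08) and BUB3 (-0.11). None passed the test (0 of 42; 0.0134% of all genes; smallest adjusted p of a member 0.494 by limma). At an unadjusted p under 0.05 there were 6 of 42, namely PTTG1, CDK1, MAD2L1, ANLN, CEP55 and ZWINT, against 9.14% of all genes. By role, the median was lowest for the checkpoint and anaphase genes (-0.35) and the midzone and cytokinesis genes (-0.33), and highest, TOP2A aside, for the kinetochore genes (-0.16).

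The median ratio was -0.35 in ARP1 and -0.15 in H929, each with 38 members below 0. In 35 genes it was below 0 in both lines, against 28.9% of all genes. Against the control of overexpression, the libraries labelled knockdown gave 27 members below and 15 above 0, with a median of -0.10 and no call (0.0134% of all genes; 6 of 42 at an unadjusted p under 0.05, against 15.8%), and the lines differed in sign, with medians of -0.18 in ARP1 and 0.09 in H929. Against both controls, 37 members were below 0 and 5 above, with a median of -0.14 and no call (0.00671% of all genes; 7 of 42 at an unadjusted p under 0.05, against 13.4%). ZWINT (-0.58 ± 0.12; adjusted p = 0.254 by limma), ANLN (-0.53 ± 0.12), MAD2L1 (-0.51 ± 0.15), CCNB1 (-0.45 ± 0.25), CDK1 (-0.39 ± 0.13) and KIF20A (-0.37 ± 0.20) were lowest. KIF2C (0.16), TOP2A and CENPA (0.05 each), ECT2 and NDC80 (0.04 each) and TTK (-0.0039) were highest. Without the ARP1 library labelled knockdown the median was -0.08 against its own control and 0.01 against both.

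The CHEK1 level of the H929 library labelled knockdown was not below its control, and that of the ARP1 library was below by less than the ARP1 controls differed. Without the H929 library labelled knockdown, the knockdown arm rests on the ARP1 library, which is then assumed to vary like the other groups. In that fit 6 members, BUB1B, CCNB1, CDC20, DLGAP5, KIF20A and MAD2L1, passed the test as lower than in their own control by limma, against 4.41% of all genes in that direction. Against both controls 8 members were lower, against 6.6%, and against the control of overexpression 4, against 6.31%. The difference between the lines was tested in a fit with line-by-genotype terms and both controls pooled. No member passed for overexpression, with 0 of 42 at an unadjusted p under 0.05 against 1.87% of all genes, nor for knockdown, with 2 of 42 (SPC24 and CCNB1) against 7.79%. The ARP1 minus H929 effect had a median of 0.19 over the members for overexpression and -0.23 for knockdown, against -0.01 and -0.05 over all genes.

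**Figure D2:**
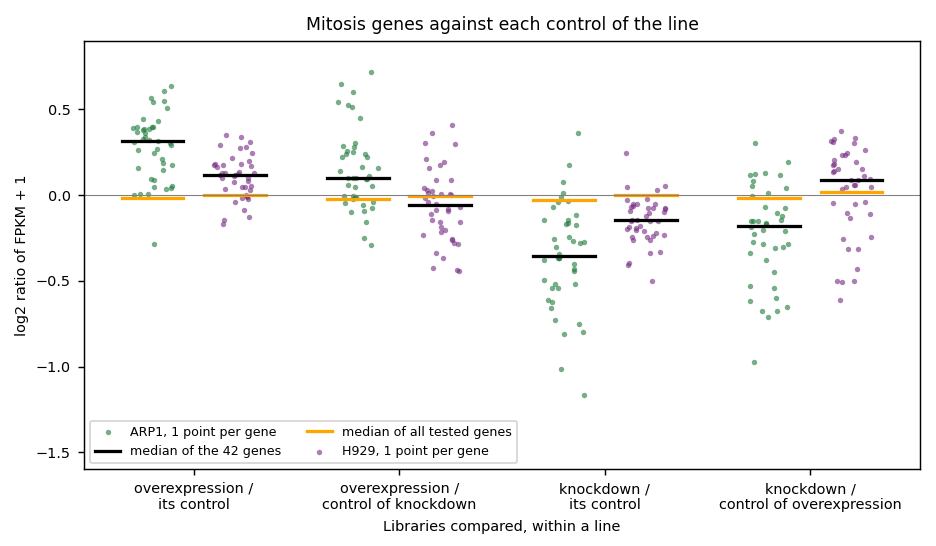
Log2 ratio of FPKM plus 1 (y axis) of each member in ARP1 and H929, against the control of the same arm and against the other control of the line (x axis); points are genes, black bars the members' medians and orange bars the medians of all tested genes. Ratios of overexpression to its own control lie mostly above 0 and those of knockdown to its own control mostly below, while against the other control of the line the medians are nearer to 0, between -0.18 and 0.10.

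The controls themselves differed in these genes. The control of overexpression was below the control of knockdown in 29 members in ARP1 and 33 in H929, and in 26 in both lines, against 32.9% of all genes. The fitted median was -0.17, no member passed (0.0537% of all genes, 0.0201% higher and 0.0335% lower), and 8 of 42 had an unadjusted p under 0.05, against 10.7% of all genes. BUB3, at 0.49 ± 0.12, and ZWINT, at 0.43 ± 0.14, were higher in the control of overexpression, and CCNB2 (-0.43 ± 0.14), NEK2 (-0.42), CENPA (-0.41), BIRC5 (-0.39), AURKA (-0.37) and ECT2 (-0.34) were lower there. A difference of this size between the controls is close to the medians of the manipulations.

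A stricter description needs no model and asks that the manipulated library lie on 1 side of both controls in both lines. Overexpression lay above both controls in both lines for 12 members (28.6%), against 14.7% of all genes: CDK1, TTK, MAD2L1, CENPE, NDC80, KIF11, KIF18A, KIF2C, TPX2, DLGAP5, HMMR and ECT2. It lay below both in none, against 16.5%. Knockdown lay below both controls in both lines for 13 members (31%), against 14.1% of all genes: CDK1, BUB3, MAD2L1, PTTG1, ESPL1, CENPF, ZWINT, KIF11, DLGAP5, HMMR, PRC1, ANLN and CEP55. It lay above both for KIF2C alone, against 15%. CDK1, MAD2L1, KIF11, DLGAP5 and HMMR met both orders, 5 of 42 against 3.57% of all genes. Some of these margins were small: CDK1 with overexpression exceeded the control of knockdown by 0.05 in ARP1 and 0.04 in H929 on the log2 scale. For KIF11 the overexpression library exceeded the nearer control by 0.38 in ARP1 and 0.13 in H929, and the ratios of knockdown to the nearer control were -0.01 and -0.33. For ANLN the ratios of knockdown to the nearer control were -0.52 in ARP1 and -0.50 in H929. In ARP1 alone MAD2L1 (-0.67) and DLGAP5 (-0.54) lay further below the nearer control, but by -0.25 and -0.04 in H929. Within single lines, overexpression lay above both controls for 26 members in ARP1 (29.2% of all genes) and 14 in H929 (34%), and knockdown below both for 29 in ARP1 (39.4%) and 15 in H929 (29.1%).

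The 2 arms were also compared without regard to the manipulation. Both libraries of the overexpression arm lay above both of the knockdown arm in both lines for BUB3, ZWINT, KIF11 and HMMR, 4 of 42 against 10.5% of all genes, and below for none, against 10.6%. The share of members above was near that of all genes. In these 4 genes the control of knockdown also lay below the overexpression arm, by differing margins. For HMMR in H929 the control of knockdown lay at 0.05 and the control of overexpression at 0.09 from the line's mean on the log2 scale. The H929 library labelled knockdown lay at -0.34.

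The cell line was the comparison in which members passed the test, at a share near that of all genes. In the same fit, 11 of 42 were lower in ARP1 than in H929 (13.4% of all genes) and 1 was higher (13.7%). In either direction 12 of 42 differed, a share near the 27.1% of all genes. SPC25 averaged 13.2 ± 2.58 FPKM in ARP1 and 22.5 ± 2.28 in H929 (SD, n = 4 libraries each), a log2 difference of -0.74 ± 0.14 (SE; adjusted p = 0.0102 by limma). ANLN averaged 23.2 ± 4.48 FPKM and 38.5 ± 6.07, a log2 difference of -0.71 ± 0.10. NUSAP1 averaged 75.7 ± 9.30 and 123 ± 15.2 FPKM. In these 3 genes the libraries of the lines did not overlap. PRC1 averaged 56.3 ± 4.57 and 88.1 ± 4.90 FPKM, with the smallest adjusted p of any member (0.00368 by limma). NDC80 averaged 37.2 ± 2.68 and 57.0 ± 6.33 FPKM, and its partners in the complex, NUF2 and SPC24, did not pass, at -0.42 (adjusted p = 0.055) and 0.03 (adjusted p = 0.931) by limma. The other 6 that were lower in ARP1 were ZWINT (-0.59), MAD2L1 (-0.55), CEP55 and KIF23 (-0.42 each), BIRC5 (-0.39) and CCNB2 (-0.35). KIF18A was higher in ARP1, at 13.0 ± 0.693 FPKM against 8.72 ± 1.5, a log2 difference of 0.54 ± 0.12 (adjusted p = 0.0175 by limma).

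Of the members, 35 were lower and 7 higher in ARP1, with a median of -0.30, against 0.00 over all genes. By role, the median was lowest for the kinetochore and the midzone and cytokinesis genes (-0.42 each), and 4 of the 6 midzone and cytokinesis genes passed, where 27.1% of all genes did. TOP2A (115 ± 17.3 and 115 ± 15.5 FPKM), PLK1 (106 ± 14.1 and 107 ± 4.97 FPKM) and INCENP (50.6 ± 5.0 and 51.1 ± 2.06 FPKM) had means within 1 FPKM of each other in the 2 lines. All 4 ARP1 libraries lay below all 4 H929 libraries for 10 members, against 13.7% of all genes: MAD2L1, AURKB, NDC80, SPC25, KIF2C, NUSAP1, KIF23, KIF20A, PRC1 and ANLN. The reverse held for KIF18A alone, against 13.3%. Without the control of overexpression of either line 6 members passed, against 13.2% of all genes, so the members' share was near that of all genes. Without the control of knockdown of either line 7 passed, against 14%: ANLN, NDC80, NUSAP1, PRC1, SPC25 and ZWINT passed in each of these, joined by MAD2L1 in the latter. Scaled to an equal FPKM sum, which is larger in ARP1 (663877 to 693299, against 631871 to 649959 in H929), 20 members passed, against 27.7% of all genes. That scaling put 19 of the 20 lower in ARP1, against 16.4% of all genes, and the median of all genes at -0.05.

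**Figure D3:**
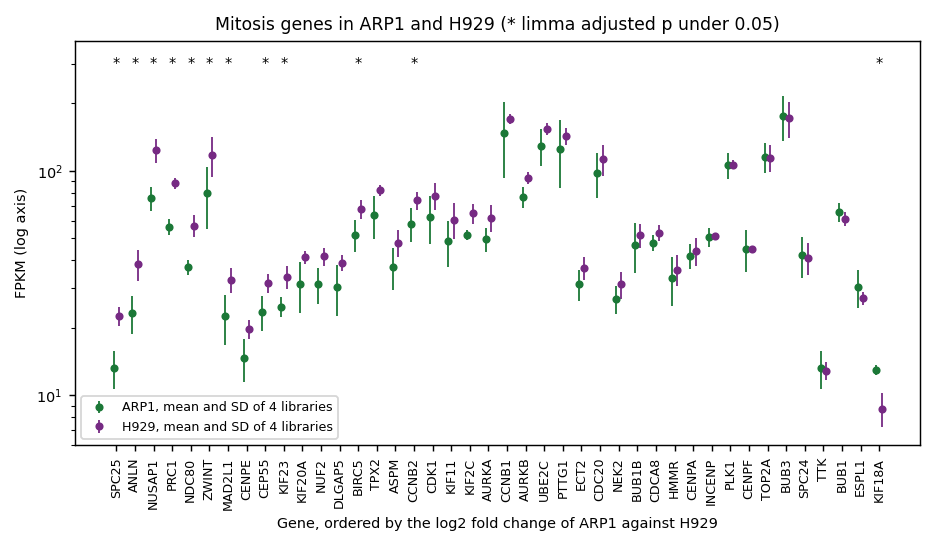
Mean FPKM of the 42 members (log axis) in ARP1 and H929, ordered by the log2 fold change between the lines; bars are the SD over 4 libraries, and stars mark the 12 members with a limma adjusted p under 0.05. On the left, from SPC25 to MAD2L1, the ARP1 points lie below those of H929, and KIF18A at the right end has the higher mean in ARP1.

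The 101 other genes, regulators of mitotic entry and of late cell cycle genes included, had fold changes mostly of the same sign as the members, with smaller medians. None of the 101 passed the test for overexpression or knockdown against its control (0.00671% and 0.0134% of all genes). For overexpression against its control 67 were above 0 and 34 below (median 0.14), and for knockdown 26 above and 75 below (median -0.12). The condensin and cohesion-protection genes, which compact and hold sister chromatids, had 9 of 10 above 0 with overexpression (median 0.24) and 10 of 10 below with knockdown (median -0.18). NCAPG, a condensin subunit, read 19.8, 27.8, 17.5 and 18.7 FPKM in ARP1 and 21.6, 27.9, 24.3 and 18.0 in H929. SGO2, a shugoshin that protects cohesin, read 13.1, 17.3, 10.1 and 8.79 in ARP1 and 15.3, 15.8, 16 and 9.58 in H929. The anaphase-promoting complex itself was mixed, with 9 of 17 above 0 for overexpression (median 0.02) and 13 of 17 below for knockdown (median -0.09). The other kinetochore and checkpoint genes had 15 of 25 above 0 and 15 of 25 below, and the other spindle and cytokinesis genes 17 of 22 above and 19 of 22 below. The 11 other entry regulators had 7 above for overexpression and 9 below for knockdown, among them CCNA2, cyclin A, at 0.34 and -0.32, and CDC25A, a phosphatase that activates CDK kinases, at -0.57 for knockdown.

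Among the regulators that drive or repress these promoters the signs were nearer to even. Of 16, 10 were above 0 for overexpression against its control (median 0.05) and 9 below for knockdown (median -0.02). FOXM1, an activator of late cell cycle genes, read 52.9, 62.8, 59.7 and 51.9 FPKM in ARP1 and 59.8, 69.1, 65.3 and 71.3 in H929. TFDP1, the partner of E2F factors, read 94.7, 113, 81.4 and 56.7 in ARP1 and 189.6, 215, 199.8 and 201 in H929, and was lower in ARP1, with a log2 fold change of -1.25 ± 0.16 (adjusted p = 0.00337 by limma). Of the 101 genes, 23 were lower and 4 higher in ARP1 than in H929, against 13.4% and 13.7% of all genes.

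The G1/S genes, mostly for replication factors and E-type cyclins, had 10 of 16 above 0 for overexpression against its control (median 0.08) and 13 of 16 below for knockdown (median -0.16). All 16 were above 0 for overexpression against the control of knockdown (median 0.23), where the members' median was -0.01. The control of overexpression was above the control of knockdown for 14 of these 16 (median 0.21) and for 8 of the 42 mitosis genes (median -0.17). None of the 16 passed the test in any of these comparisons.

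The deposited values are per transcript, and 192 transcripts belong to the 42 genes, 190 of them annotated as protein coding. In 41 genes coding transcripts held over 90% of the summed FPKM, and KIF23 had 86.7%. The transcripts of a gene did not all follow its sum. ANLN-201, the transcript of 4787 bases, read 9.41, 9.89, 8.79 and 10.4 FPKM in ARP1 and 18.8, 20.1, 20.8 and 17.7 in H929. ANLN-208, of 829 bases, read 4.81, 5.93, 1.13 and 0.0414 in ARP1 and 8.49, 6.28, 8.81 and 3.78e-08 in H929. Between the ARP1 control of knockdown and the library labelled knockdown, most of the difference in the ANLN sum lay in ANLN-204, of 596 bases (7.45 and 3.03 FPKM), and ANLN-202, of 4661 bases (6.33 and 3.10). In H929 most of it lay in ANLN-208. The low ANLN sums in the libraries labelled knockdown were thus not seen in ANLN-201 in ARP1, where it was highest in that library, and with FPKM weighted by transcript length ANLN was not among the members below both controls. BUB3-202, of 667 bases, read 36.3, 13.4, 3.3e-05 and 0.000822 in ARP1 and 16.1, 16.2, 0.0121 and 1.85 in H929, following the arms. BUB3-201, the main transcript of 1361 bases, read 124, 120.4, 95.5 and 83.8 in ARP1 and 115, 114, 91.7 and 92.6 in H929, with the same order of arms. ZWINT-203, with 79.5% of the ZWINT sum, read 77.1, 79.4, 54.7 and 41.5 in ARP1 and 108, 112, 82.8 and 71.4 in H929, close to the pattern of the gene. AURKA was the most divided member, with 13 transcripts listed and 19.2% of its sum in the largest.

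**Figure D4:**
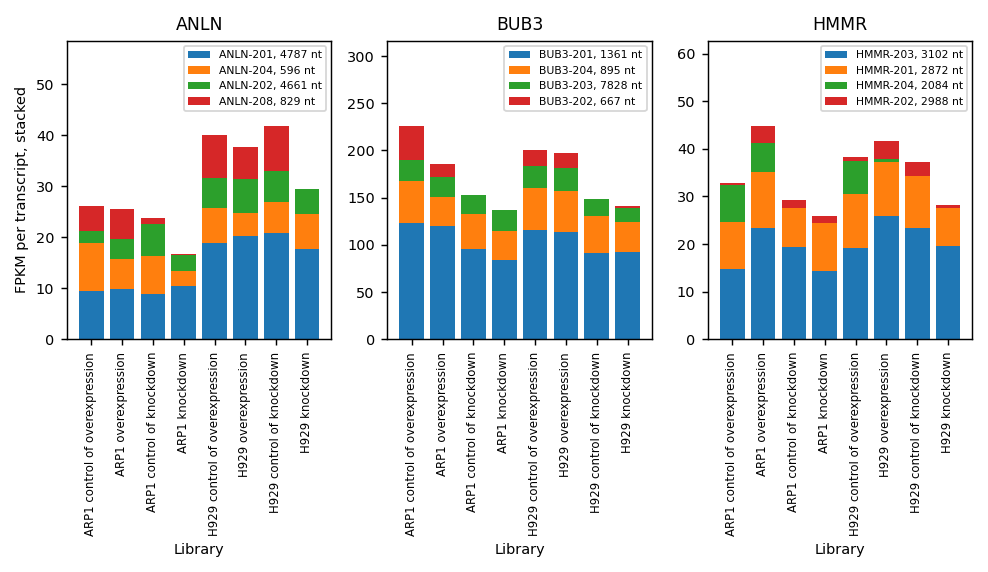
FPKM of the transcripts of ANLN, BUB3 and HMMR (y axis, stacked) in the 8 libraries (x axis); transcripts that hold 2% or less of the gene's sum are left out. The part of ANLN-208 is at or near 0 in both libraries labelled knockdown while that of ANLN-201 is not lower there in ARP1, and the part of BUB3-202 is at or near 0 in the knockdown arm of ARP1 and in the H929 control of knockdown.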

How the data were processed

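RNA of 8 libraries, 1 per genotype in ARP1 and H929, was sequenced as paired ends after poly(A) selection, per the labels' protocols. The authors deposited FPKM per transcript, which is fragments per kilobase scaled to the library's total. Bowtie 0.12.2, HISAT2 2.0 and StringTie 1.3.0 are named, with the build mm8, per the submitters' processing notes. That is a mouse build and the transcripts carry human identifiers, so the build they were counted on is not given in the sources used. The deposited table calls its values means without giving the number of runs. Read depth is unknown, so no counting error is given, and the spread between libraries sets the precision.

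Of 88209 transcripts, 87707 were joined to genes of GENCODE 29, and the other 502 were not used. The FPKM of a gene is the sum over its transcripts. Values were log2(FPKM + 1), and 14905 of 24351 genes reached an FPKM of 1 in 2 or more libraries. limma 3.58.1 in R 4.3.3 was fitted to all 8 libraries with genotype and cell line as terms and a variance trend (3 residual and 3.74 prior degrees of freedom). Tests were two-sided, with Benjamini-Hochberg adjustment over all genes and a threshold of 0.05. A fold change on this scale understates that of low genes. The labels tie each library to its line, and every line holds each genotype once, so the line was the block. Differences between lines were tested with the pair of controls in a line taken as 1 group (residual degrees of freedom: 2). The script was tested on simulated data. The members and the gene lists were chosen with earlier results of these data known. Members named with fitted values are the 6 largest and 6 smallest per comparison and those that passed the test, and up to 4 genes per list with the largest change were eligible. Those for which overexpression or knockdown lay on 1 side of both controls in both lines were named too. Alternatives were the pseudocount, the filter, the scaling, the block, the variance estimate and the set of transcripts. Others were the libraries of a comparison alone and each library left out. Between the lines, the genotype terms were left out in place of the block.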

Additional observations from a re-analysis of the deposited data

Results flagged for a closer look

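Each member's 4 values in a line were examined for a value apart from the rest, 84 groups in all, and 1 (1.19%) stood out. The cutoff is set to flag about 1 in 20 groups of replicates. These values come from different genotypes, so that rate need not hold here. INCENP, the scaffold of the chromosomal passenger complex, was 43.08 FPKM in the ARP1 library labelled knockdown, while the other ARP1 libraries lay between 52.71 and 53.43 FPKM. That gap is 0.93 of the range of the 4 values.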

How the results depend on the processing

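No member passed the test for overexpression or knockdown under any alternative that kept all 8 libraries, or under the 4 libraries of the arm alone. Of the medians, the counts of members that passed and the order counts, 292 values stayed within a set margin of the main value. The other 28 did not, and the cause was not tested. A count had to stay within a set factor. A median had to keep its sign and shift by less than its SD between the lines, or between genotypes for the line comparison. That margin is wide: 0.138 for overexpression against its control, beside a median of 0.20. Against the control of knockdown, the median for overexpression (-0.01) turned to 0.012 with median-ratio scaling, 0.0048 with equal sums and 0.0078 with FPKM weighted by transcript length. The controls' median was -0.14 with equal sums. Between the lines, 20 members passed with equal sums (27.7% of all genes) and 19 with length weighting (31.5%). With the genotype terms left out of that comparison 7 passed (21.3%, so the members' share was below it). In the other comparisons, leaving out the line as block changed no call of a member. With equal sums 17 members had all ARP1 below all H929 libraries (16.1% of all genes), and with length weighting knockdown was below both controls for 8 (14.1%). With length weighting INCENP (-0.0034) and ANLN (0.13) changed sign for overexpression against its control, AURKA (0.025) and ANLN (0.043) against both controls, and CENPE (-0.12) for knockdown against its control. With equal sums TTK was 0.011 and 0.0077 for knockdown against its control and both controls.

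With each library left out in turn, the median ranged from 0.054 to 0.36 for overexpression against its control, -0.012 to 0.24 against both, and -0.12 to 0.15 against the control of knockdown. For knockdown it ranged from -0.33 to -0.082 against its control, -0.28 to 0.0074 against both, and -0.26 to 0.097 against the control of overexpression. Between the controls it ranged from -0.19 to -0.12. Members that passed ranged from 0 to 6, 0 to 8 and 0 to 4 for these knockdown comparisons, and from 6 to 13 between the lines (13.2% to 28.3% of all genes). Genes of all kinds that passed reached 1005, 1573 and 1493 without the H929 library labelled knockdown, against 2, 1 and 2. For the controls they ranged from 0 to 14 against 8, and for overexpression against the control of knockdown reached 29 against 0. With all 8 libraries or the arm alone, they ranged from 0 to 4 for each arm against its own control, 0 to 1 against both, 0 to 4 and 1 to 3 against the other control, and 2 to 8 between the controls.

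Single members changed sign without some library. For overexpression against its control these were INCENP (-0.032 to 0.15), CDCA8 (-0.084 to 0.13), SPC24 (-0.40 to 0.27), ZWINT (-0.091 to 0.13) and ANLN (-0.18 to 0.035). For knockdown against its control they were TTK (-0.18 to 0.15), CENPE (-0.29 to 0.39), CENPF (-0.23 to 0.061), NDC80 (-0.051 to 0.15) and KIF2C (-0.0045 to 0.27). Against both controls they were AURKA (-0.23 to 0.16), NEK2 (-0.18 to 0.13), CDC20 (-0.35 to 0.27), CDCA8 (-0.13 to 0.038), SPC24 (-0.44 to 0.23) and ANLN (-0.15 to 0.061) for overexpression. For knockdown they were CCNB1 (-0.98 to 0.068), TTK (-0.086 to 0.078), CENPA (-0.092 to 0.19), NDC80 (-0.033 to 0.11), KIF20A (-0.73 to 0.0033), ECT2 (-0.017 to 0.096) and TOP2A (-0.026 to 0.12).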

Other observations

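Some transcripts of the members differed between libraries far more than their genes. HMMR-204, of 2084 bases, read 7.76, 6.17, 5.18e-05 and 5.85e-05 FPKM in ARP1 and 6.81, 0.766, 0.000243 and 5.48e-05 FPKM in H929, in the order control of overexpression, overexpression, control of knockdown, knockdown. A NUSAP1 transcript of 1629 bases read 12.9, 7.08, 2.68e-06 and 0.236 FPKM in ARP1 and 8.47, 6.75, 5.59 and 10.4 FPKM in H929. The transcript with the largest share of HMMR, HMMR-203, ranged from 14.2 to 25.9 FPKM over the 8 libraries, and the largest of NUSAP1 from 26.2 to 73.2 FPKM.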
